A study of Rattus norvegicus with 91 samples.

Results

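The genes described here code for the mitochondrial oxidative phosphorylation system of rat liver, read in animals labelled with the glucocorticoid methylprednisolone. They were taken by symbol, as every gene whose probe sets carry 1 symbol that begins with Nduf, Sdha to Sdhd, Uqcr, Cox4 to Cox8 or Atp5, or that equals Cyc1 or Cycs. That rule found 89 genes of the 10620 named on either array design. It uses symbols and no measured value, but it was chosen with earlier results of these data known. Cycs, the gene of cytochrome c, was not analysed here. Nearly all products are subunits of complexes I to V. The rule also catches assembly factors of the Ndufaf and Sdhaf groups and 3 further symbols, Ndufa4l2, Cox7a2l and the pseudogene symbol Cox6c-ps1. It catches Atp5if1 too, an inhibitor of complex V that is counted with that complex here.

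Liver RNA of Wistar rats had been hybridised to Affymetrix expression arrays of 2 designs. The first set of 47 arrays, called the short course here, holds 16 times from 0.25 to 72 h with 2 or 3 arrays each and 4 arrays of controls at time 0. The second set of 44 arrays, the long course, holds 10 times from 6 to 168 h with 4 arrays each and 4 control arrays. Every description names Wistar rats and a dose of 50 mg/kg, that of the controls included. The labels give no route, schedule, vehicle, age or sex, so the control arrays can be described only as time 0. They do not say whether replicate arrays came from separate animals, and every error and p-value below measures only the spread between arrays, whose number limits the precision. Levels are not compared between the 2 courses, which used different designs and were scaled separately.

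Oxidative phosphorylation makes most of the ATP of a liver cell. Complex I takes electrons from NADH and complex II from succinate, complex III passes them to cytochrome c, and complex IV hands them to oxygen, while complexes I, III and IV pump protons that complex V uses to make ATP. All genes described here lie in the nucleus. A few core subunits of complexes I, III, IV and V are made from mitochondrial DNA, none of which was listed on these arrays by the symbols searched. Hepatocytes are rich in mitochondria and spend ATP on glucose and urea synthesis, processes that glucocorticoids are known to promote.

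In the short course 56 of the genes were measured and 55 were bright enough to be tested, and in the long course 89 were measured and 87 tested. Cox8b in the short course and Cox7a1 and Cox6b2 in the long course fell below the filter, set at the 30th percentile of mean signal. The brightest probe set was read for each gene. A change is the difference of mean log2(signal + 32) from the controls of the same course with its standard error, and it passed when limma's p-value, adjusted by Benjamini and Hochberg over all probe sets tested, was under 0.05. Times were averaged in windows, because single times hold 2 to 4 arrays. Some changes carry a count such as 12 of 12 arrays, which says how many arrays in the window were shifted the same way from the control mean. In bulk liver RNA fewer cells of a type and less RNA per cell cannot be told apart.

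Some arrays stood apart. In the short course 9 arrays had a mean correlation with the others under 0.9, against 1 in the long course, and counts are given with and without them. In the long course 15 arrays had a high level of the hybridisation spike-ins, 1 of them a control and 6 of them among the 12 arrays of 72-168 h. High means a mean log2 level above 9, a split that no label names, and 36 h replicate 2 stood just below it at 8.99. The log2 ratio of the 3' to the 5' probe sets of Gapdh, a measure of RNA integrity, was 0.10 ± 0.20 in the long-course controls (SD, n = 4), 0.20 ± 0.21 at 6-18 h (n = 16), 0.28 ± 0.13 at 24-48 h (n = 12) and 0.36 ± 0.05 at 72-168 h (n = 12).

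Over time the oxidative phosphorylation genes as a group went 2 ways. In the short course the median change over the genes was below 0 from 1 to 7 h, lowest at 2 h with -0.23. Within that span the single arrays of 5.5 h lay on both sides of 0, with medians of -0.164, 0.101 and 0.104. The median change was above 0 at 12 h (0.17) and 18 h (0.25), and lay between -0.04 and 0.04 at 30, 48 and 72 h. In the long course the medians for 6, 10, 18, 24, 96 and 168 h were 0.01, 0.15, 0.24, 0.30, 0.36 and 0.25. Array by array, the median over the genes lay between 0.14 and 0.53 on the 12 arrays of 72-168 h and between 0.16 and 0.62 on the 12 arrays of 24-48 h, all above the 4 controls, which lay between -0.02 and 0.05. At 48 and 72 h the long-course medians over 87 genes were 0.31 and 0.35. The short-course medians, over 55 genes on the other array design, were 0.02 and -0.04. The gene sets are unlike, and the difference between courses was not tested.

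**Figure D1:**
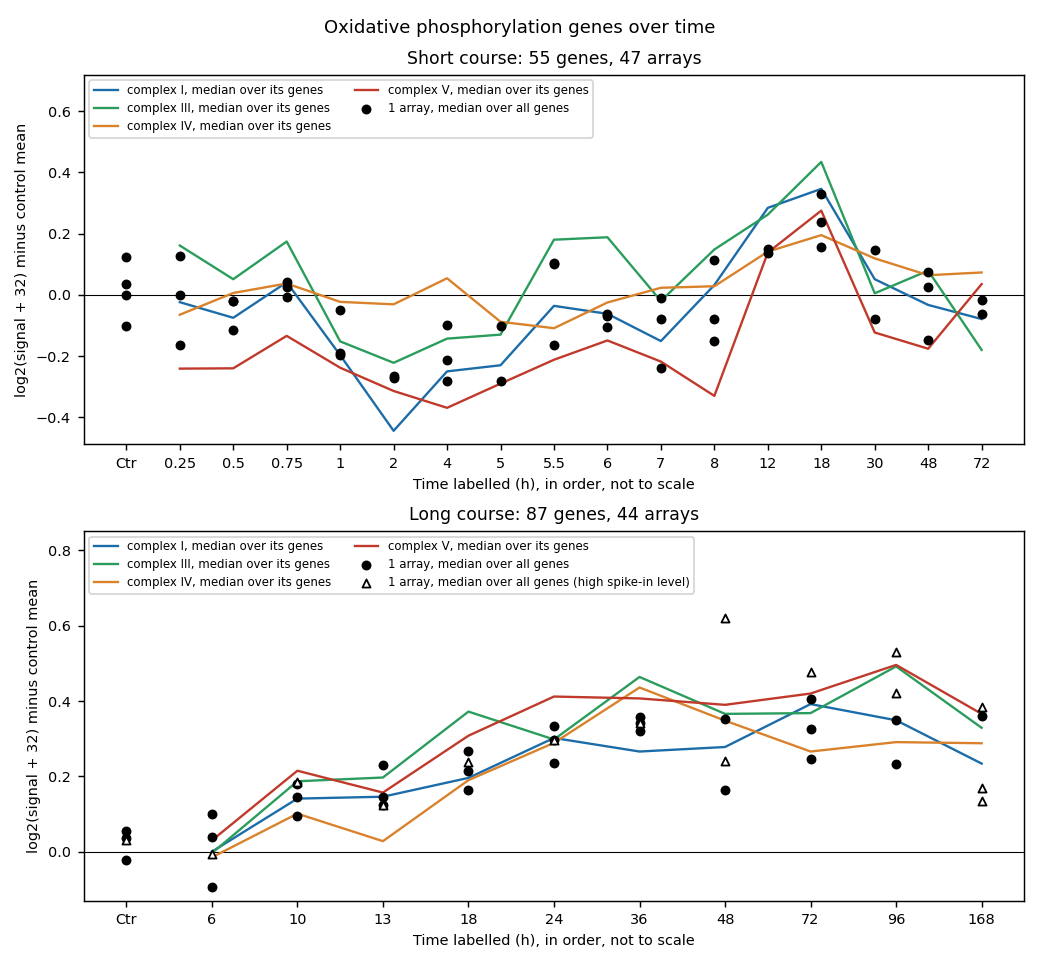
Change of the oxidative phosphorylation genes over time, short course above and long course below. The x axis gives the labelled time in h, in order and not to scale, with the controls at the left, and the y axis the difference of log2(signal + 32) from the control mean. Each point is 1 array (median over its tested genes, open triangles where the spike-in level was high), and the lines are the medians of complexes I, III, IV and V. The 12 long-course arrays of 72-168 h sit between 0.14 and 0.53, and the short-course lines lie near 0 by 72 h.

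Tested over all times together with limma's moderated F test, 43 of the 87 long-course genes changed, or 17 of 34 of complex I, 1 of 4 of complex II, 5 of 8 of complex III, 6 of 13 of complex IV, 11 of 16 of complex V and 3 of 9 assembly factors. Of all 11106 probe sets tested in that course 23.8% passed the same test. In the short course 22 of 55 genes changed, 13 of 24 of complex I, 2 of 4 of complex III, 3 of 11 of complex IV and 4 of 10 of complex V, against 33.6% of all 6118 probe sets, a share close to that of the genes. Without the 9 arrays that stood apart the short-course number was 12.

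The main movement was the late rise of the long course. At 72-168 h 38 of 87 genes rose and 1 fell, where 4.81% of all probe sets rose and 6.01% fell. At 24-48 h 31 rose and 1 fell, where 2.61% of all probe sets rose and 2.62% fell, and at 6-18 h 7 rose and 1 fell, where 4.64% rose and 4.67% fell. The median change over the genes in the windows 6-18, 24-48 and 72-168 h was 0.13, 0.29 and 0.32, beside medians of -0.03, -0.04 and -0.03 over all probe sets in the same order. At 72-168 h 78 of the 87 genes lay above the control mean, as did 44.3% of all probe sets.

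The rise at 72-168 h reached every complex. Of complex I 14 of 34 genes rose, of complex II 2 of 4, of complex III 5 of 8, of complex IV 6 of 13 and of complex V 10 of 16, with median changes of 0.34, 0.33, 0.38, 0.27 and 0.41. All 34 complex I genes lay above the control mean, the lowest at 0.04. Of the 9 assembly factors 1 rose, and their median was 0.21. For 19 genes all 12 arrays of 72-168 h lay above all 4 controls, where 1.22% of all probe sets did so. For 1 gene all 12 lay below, where 1.35% of all probe sets did so. At 24-48 h the same counts were 19 genes above and 1 below, where 0.837% and 0.819% of all probe sets were. At 6-18 h it was 1 gene above, where 0.630% of all probe sets were.

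**Figure D2:**
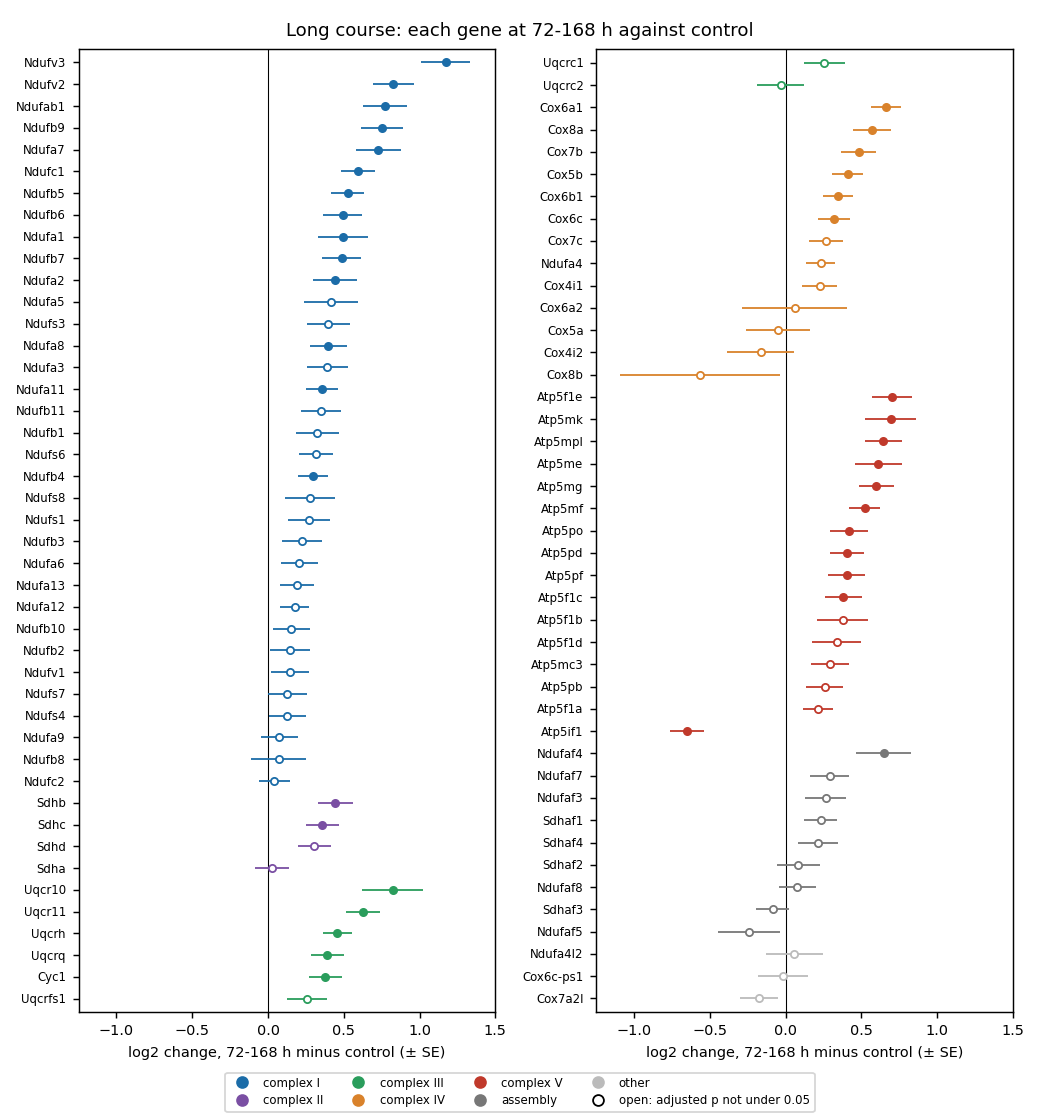
Change of each of the 87 tested long-course genes at 72-168 h against control. The x axis is the difference of log2(signal + 32) with its standard error, colours mark the complexes, and filled points passed limma's test at an adjusted p under 0.05. Filled points lie right of 0 in all 5 complexes, from 0.30 to 1.17, and Atp5if1 of complex V is the filled point at -0.65.

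Promoters are shown for members with a large late rise, for Atp5if1, which fell, and for Ndufaf4, which had the largest early rise. Of the 89 genes 80 have a promoter of 300 bases, 250 before to 50 after the start, in the RefSeq table for the GRCr8 build. Searched on both strands were the motif of nuclear respiratory factor 1 (NRF1, a factor known for respiratory chain genes) as GCGC and TGCGC with 1 free base between them, the core of the ETS site that GABP binds as ACTTCCG, the YY1 site as AAGATGGC, the site of estrogen-related receptor alpha as TCAAGGTCA, and the palindrome of the glucocorticoid receptor as AGAACA and TGTTCT with 3 free bases between them. No motif searched is contained in another. The NRF1 motif was in 21.2% of the 80 promoters and in 4.71% of all 27457 promoters of that length. The ETS core was in 22.5% of the 80 and in 6.7% of all, and the YY1 site in 21.2% and 3.44%. The receptor alpha site was in 2.5% and 0.412%, and the glucocorticoid receptor palindrome was in none of the 80 and in 0.00728% of all. Median GC content was 56.0% in the 80 promoters and 52.3% in all. Between the 31 genes with a promoter that rose at 72-168 h and the 47 that were tested and did not, the shares were 25.8% and 19.1% for NRF1, 29.0% and 19.1% for ETS and 22.6% and 21.3% for YY1, a difference that was not tested. A match is a string of letters and no proof of binding. The 120 bases before the start of 7 genes follow, in GRCr8, 5′ to 3′ along the gene, with matches on either strand in capitals. Ndufv3 (chr20:9613666-9613785, plus strand) and Atp5mpl (chr6:136845641-136845760, minus strand) show NRF1 matches, Ndufa7 (chr7:15311326-15311445, plus strand) and Cox8a (chr1:213833624-213833743, minus strand) ETS matches, and Atp5pf (chr11:37375102-37375221, minus strand) a YY1 match. They are the genes with the largest late rise among those with that match in these bases, and Atp5mpl, Ndufa7 and Atp5pf were chosen after their values were seen. Atp5if1 (chr5:150026678-150026797, minus strand) and Ndufaf4 (chr5:43401675-43401794, plus strand) had no match in these bases. The 300-base promoter of Ndufaf4 holds an NRF1 match outside the bases shown, and that of Atp5if1 holds none of the 5 motifs. The same is true of Ndufv2, Uqcr10, Ndufab1, Atp5f1e and Atp5mk, which had large late rises. The genes shown with a match were picked for it and do not stand for all that rose.
Ndufv3: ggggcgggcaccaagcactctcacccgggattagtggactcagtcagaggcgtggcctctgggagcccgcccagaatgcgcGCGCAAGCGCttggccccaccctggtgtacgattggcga
Atp5mpl: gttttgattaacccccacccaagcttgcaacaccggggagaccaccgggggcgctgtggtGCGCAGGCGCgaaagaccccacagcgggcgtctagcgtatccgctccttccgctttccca
Ndufa7: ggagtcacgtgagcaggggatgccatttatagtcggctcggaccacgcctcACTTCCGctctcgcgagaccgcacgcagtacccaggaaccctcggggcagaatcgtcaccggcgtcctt
Cox8a: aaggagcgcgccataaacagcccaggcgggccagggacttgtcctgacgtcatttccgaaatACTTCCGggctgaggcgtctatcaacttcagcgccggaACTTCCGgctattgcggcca
Atp5pf: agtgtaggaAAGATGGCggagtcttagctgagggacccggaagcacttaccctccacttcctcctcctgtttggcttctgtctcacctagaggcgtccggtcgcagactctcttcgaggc
Atp5if1: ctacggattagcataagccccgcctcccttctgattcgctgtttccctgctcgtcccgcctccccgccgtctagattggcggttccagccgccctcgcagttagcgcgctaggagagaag
Ndufaf4: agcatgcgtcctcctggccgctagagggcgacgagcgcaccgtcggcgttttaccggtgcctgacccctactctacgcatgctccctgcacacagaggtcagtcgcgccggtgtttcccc

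Complex I held the largest late change. Ndufv3, an accessory subunit beside the NADH-binding site, had signals of 695.2 to 1322 at 72-168 h with a median of 859.1, against 380.9, 314.3, 373.5 and 440.7 in the controls. The 12 arrays lay above all controls without overlap. The rise was 1.17 ± 0.16 (limma, adjusted p = 1.74e-06, 12 of 12 arrays). At 24-48 h Ndufv3 ran from 491.9 to 1069 with a median of 599.5, again above all controls, a rise of 0.68 ± 0.16 (limma, adjusted p = 0.00692). That earlier call was lost without control replicate 2 (adjusted p = 0.0544). Its second, dim probe set, mean signal 42.79, did not move with it and stood at -0.04 at 72-168 h.

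Ndufv2, a core subunit with an iron-sulfur cluster, had signals of 1081 to 2066 at 72-168 h with a median of 1664, against 894.5, 723.2, 1103 and 887.7 in the controls. The lowest treated array lay just under the highest control. The rise was 0.83 ± 0.14 (limma, adjusted p = 3.77e-05, 12 of 12 arrays). Ndufc1, a membrane-arm subunit, ran from 1224 to 1780 with a median of 1671 at 72-168 h, against 1167, 936.5, 1030 and 1032 in the controls, with no overlap. It rose by 0.59 ± 0.11 (limma, adjusted p = 0.000294). At 24-48 h Ndufv2 and Ndufc1 rose by 0.57 and 0.46, calls lost without control replicate 2 (adjusted p = 0.0765 and 0.0622).

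Ndufab1, the mitochondrial acyl carrier protein, had signals of 937.2 to 1376 at 72-168 h with a median of 1156, against 597.5, 687.2, 559.2 and 854.5 in the controls. The groups did not overlap, and the rise was 0.77 ± 0.15 (limma, adjusted p = 0.000249). It also rose at 6-18 h by 0.58 ± 0.14 (limma, adjusted p = 0.00585, 15 of 16 arrays). Ndufa5, an accessory subunit, moved early in the long course. Its signals ran from 78.97 to 309.4 at 6-18 h with a median of 185, against 131.5, 77.82, 88.46 and 79.25 in the controls. The groups overlapped, and the rise was 0.76 ± 0.17 (limma, adjusted p = 0.00313, 15 of 16 arrays). At 72-168 h Ndufa5 stood at 0.42 ± 0.18 (limma, adjusted p = 0.141).

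Among the other complex I genes the core subunit Ndufs7, which carries the last iron-sulfur cluster before ubiquinone, and the accessory subunit Ndufb10 stood at 0.13 ± 0.13 and 0.15 ± 0.12 at 72-168 h (limma, adjusted p = 0.613 and 0.504). For both genes the treated arrays lay on both sides of the control range, with signals of 560 to 1401 at 72-168 h against 685.8 to 890.5 in the controls for Ndufs7. Of the whole complex 20 genes did not pass at 72-168 h.

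Complex II has 4 subunit genes, all measured in the long course. Sdhb, the iron-sulfur subunit, had signals of 1033 to 1945 at 72-168 h with a median of 1542, against 1230, 949.1, 1260 and 918.3 in the controls. The groups overlapped, and the rise was 0.44 ± 0.12 (limma, adjusted p = 0.00835, 10 of 12 arrays). Sdhc, a membrane anchor, had signals of 1007 to 1555 with a median of 1070 at 72-168 h, against 773.1, 938.3, 761.5 and 1031 in the controls, whose highest array lay inside the treated range, and rose by 0.36 ± 0.11 (limma, adjusted p = 0.0241). Sdhd, the other anchor, rose at 24-48 h by 0.37 ± 0.11 (limma, adjusted p = 0.0363, 12 of 12 arrays) and stood at 0.31 ± 0.11 at 72-168 h (adjusted p = 0.0654). Sdha, the flavoprotein that oxidises succinate, stood at 0.03 ± 0.11 at 72-168 h with signals of 677.7 to 1243 and a median of 1050, against 1127, 755.3, 1146 and 1062 in the controls. The late call of Sdhb was lost without control replicate 2 or 4 (adjusted p up to 0.0552) and that of Sdhc without control replicate 1 or 3 (up to 0.131). The 24-48 h call of Sdhd was lost without any of 6 arrays, control replicates 1, 2 and 4 and replicate 2 at 24, 36 and 48 h (adjusted p up to 0.178).

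In complex III, 5 of 8 genes rose at 72-168 h. Uqcr10, a small subunit chosen after its values were seen, had signals of 1246 to 3110 with a median of 1758, against 1140, 1017, 1059 and 942.7 in the controls. The groups did not overlap, and the rise was 0.82 ± 0.20 (limma, adjusted p = 0.00465). Uqcr11, another small subunit, had signals of 765.3 to 1318 at 72-168 h with a median of 1185, against 750.4, 786.1, 649.3 and 772.1 in the controls. Only the lowest treated array fell among the controls, and the rise was 0.63 ± 0.11 (limma, adjusted p = 0.00013). Uqcrh, the hinge protein that binds cytochrome c1, ran from 1135 to 1584 with a median of 1339, against 1116, 946.1, 1002 and 857.6 in the controls, with no overlap and a rise of 0.46 ± 0.10 (limma, adjusted p = 0.000991). Uqcrq ran from 2594 to 3525 with a median of 2984, against 1954, 2135, 2248 and 2780 in the controls, whose highest array lay inside the treated range, and rose by 0.39 ± 0.11 (limma, adjusted p = 0.0117), a call lost without control replicate 1 (adjusted p = 0.0899).

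Cyc1, cytochrome c1, moved sooner. Its signals were 872.2 to 1490 at 6-18 h with a median of 1217, against 922.2, 854.7, 967 and 879.2 in the controls. They ran from 1059 to 1614 at 24-48 h and from 952.1 to 1469 at 72-168 h, with medians of 1317 and 1174. The 24-48 h arrays did not overlap the controls, and the others did. The changes from 6-18 h on were 0.36 ± 0.10, 0.49 ± 0.11 and 0.38 ± 0.11 (limma, adjusted p = 0.0209, 0.0036 and 0.0165). The first was lost without control replicate 1, 2 or 4 (adjusted p up to 0.0683) and the last without control replicate 2 (0.061). Uqcrc2, a core protein, stood at -0.03 ± 0.16 at 72-168 h (limma, adjusted p = 0.939).

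Complex IV, cytochrome c oxidase, has widely expressed subunits and tissue isoforms. Cox6a1, the liver form of its subunit, had signals of 1654 to 2333 at 72-168 h with a median of 1917, against 1115, 1277, 1101 and 1370 in the controls. The groups did not overlap, and the rise was 0.66 ± 0.10 (limma, adjusted p = 8.28e-06). Cox8a ran from 2334 to 4234 with a median of 2674, against 2076, 1648, 1555 and 2077 in the controls, without overlap and with a rise of 0.57 ± 0.12 (limma, adjusted p = 0.00129). Cox7b ran from 2696 to 4287 with a median of 3647, against 2434, 2639, 2274 and 2781 in the controls, where the ranges met, and rose by 0.48 ± 0.12 (limma, adjusted p = 0.00333). Cox5b ran from 1838 to 2740 with a median of 2150, against 1752, 1805, 1426 and 1443 in the controls, without overlap and with a rise of 0.41 ± 0.10 (limma, adjusted p = 0.00507).

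In the long course the muscle or lung forms had low signals and none passed. At 72-168 h Cox6a2, the heart and muscle form, had signals of 14.8 to 234.6 with a median of 56.3, against 18.12, 78.18, 80.4 and 86.87 in the controls. Cox8b, another muscle form, had 4.612 to 143.8 with a median of 20.48, against 5.308, 101.7, 63.41 and 174.5 in the controls. Cox4i2, the lung form, stood at -0.17 ± 0.22 (limma, adjusted p = 0.728), and Cox4i1, the form of most tissues, at 0.23 ± 0.11 (adjusted p = 0.232) with signals of 2709 to 4607. In the same course Cox7a1, the muscle form below the filter, had signals of 5.012 to 61.73 at 72-168 h, against 4.97 to 62.33 in the controls.

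Complex V is the ATP synthase, and 10 of the 16 genes counted with it rose at 72-168 h. The 16 include the inhibitor Atp5if1, which fell. Atp5f1e, the epsilon subunit of the catalytic head, had signals of 1548 to 2473 at 72-168 h with a median of 2091, against 992.6, 1230, 1415 and 1404 in the controls. The groups did not overlap, and the rise was 0.70 ± 0.13 (limma, adjusted p = 0.000249). Atp5mk, a small membrane subunit, ran from 1239 to 3390 with a median of 1500, against 946.6, 969, 1036 and 899.2 in the controls, without overlap and with a rise of 0.69 ± 0.17 (limma, adjusted p = 0.00443). Atp5mg, subunit g, ran from 2077 to 3564 with a median of 2567, against 1779, 1668, 1738 and 1562 in the controls, without overlap and with a rise of 0.60 ± 0.12 (limma, adjusted p = 0.000313). Atp5mf, subunit f, ran from 1785 to 2801 with a median of 2157, against 1342, 1542, 1532 and 1597 in the controls, again without overlap, and rose by 0.52 ± 0.10 (limma, adjusted p = 0.000438).

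Atp5if1 was the only one of the 87 tested genes that fell against the controls in a long-course window. Its product binds the ATP synthase and blocks ATP hydrolysis. Signals were 85.51 to 151.1 at 72-168 h with a median of 107.3, against 220.7, 242.2, 153.4 and 154.8 in the controls. They ran from 85.39 to 157 at 6-18 h and from 70.83 to 132.9 at 24-48 h, with medians of 127.2 and 102.3. All arrays of 24-48 h and 72-168 h lay below all controls. From 6-18 h on it fell by 0.48 ± 0.11, 0.71 ± 0.11 and 0.65 ± 0.11 (limma, adjusted p = 0.00345, 5.39e-05 and 7.68e-05), and each call held when any 1 array of its groups was left out. A dimmer probe set of the gene, mean signal 79.03, stood at -0.15, -0.21 and 0.03 in the same windows and did not pass. With its probe sets averaged the gene stood at -0.27, -0.40 and -0.20 and no longer passed (limma, adjusted p = 0.175, 0.054 and 0.365), so the fall was seen in the brighter probe set alone.

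Of the 9 assembly factors tested, 2 rose at 6-18 h and 1 in each later window, where 4.64%, 2.61% and 4.81% of all probe sets rose. Ndufaf4, which helps build complex I, had signals of 246.1 to 594.4 at 6-18 h with a median of 363.2, against 141.8, 101.7, 179.7 and 117.7 in the controls. It ran from 117.9 to 337.8 at 24-48 h and from 155.1 to 334.4 at 72-168 h, with medians of 238.5 and 225.9. The 6-18 h arrays did not overlap the controls and the later ones did. From 6-18 h on it rose by 1.31 ± 0.18, 0.66 ± 0.18 and 0.65 ± 0.18 (limma, adjusted p = 4.14e-06, 0.0233 and 0.0153). The calls of the later windows were lost without control replicate 2 or 4, and at 24-48 h also without replicate 1 (adjusted p up to 0.144). Sdhaf1, which helps put iron-sulfur clusters into complex II, rose at 6-18 h by 0.38 ± 0.11 (limma, adjusted p = 0.0177, 16 of 16 arrays), lost without control replicate 1 or 3 (up to 0.176), and stood at -0.01 at 24-48 h. Ndufaf3, Ndufaf5, Ndufaf7, Ndufaf8, Sdhaf2, Sdhaf3 and Sdhaf4 passed in no window against the controls, with changes of -0.24 to 0.29 at 72-168 h.

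**Figure D3:**
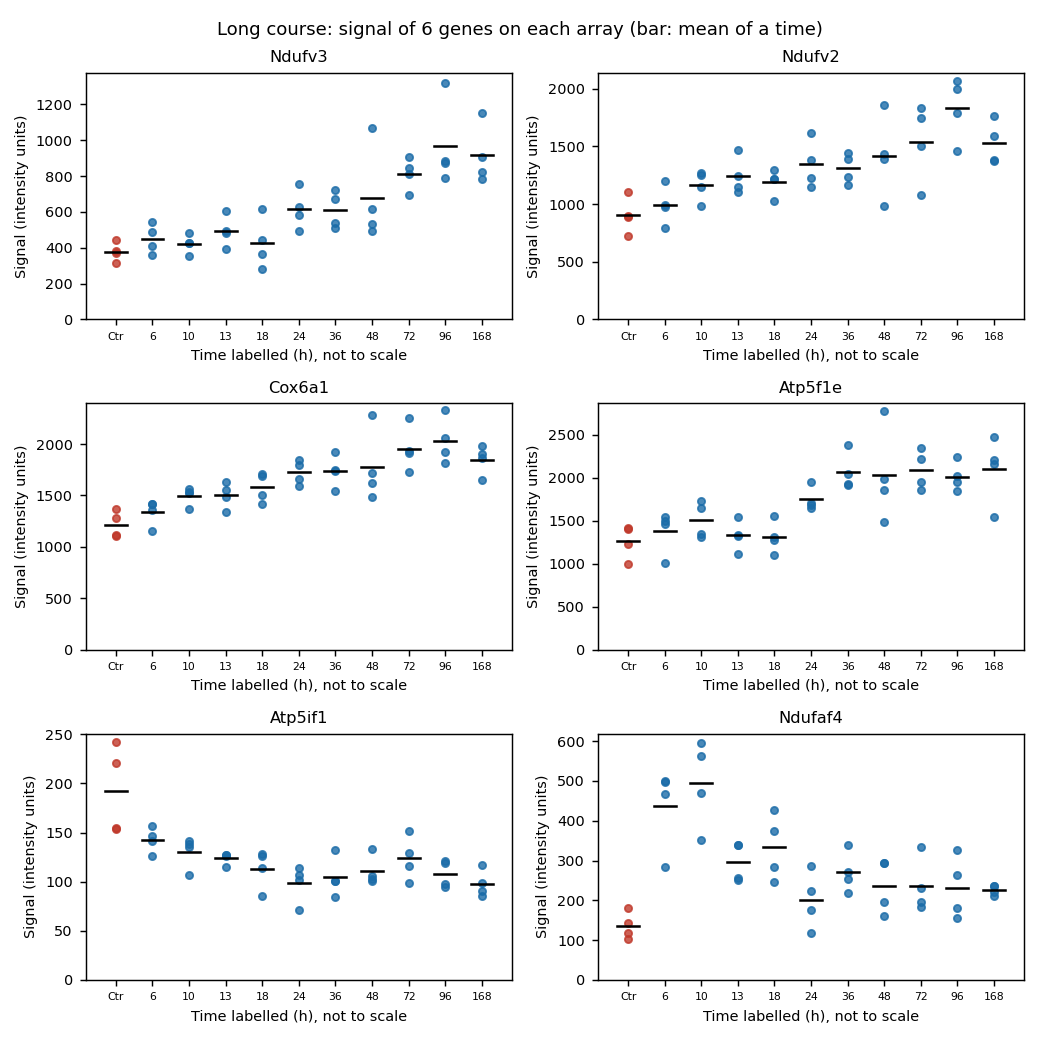
Signal of 6 long-course genes on each array, in intensity units on linear axes that start at 0. The x axis gives the labelled time in h with the controls at the left (red), points are arrays and bars the mean of a time. Ndufv3 reaches 966.7 on average at 96 h, Ndufaf4 is highest at 10 h with a mean of 494.2, and Atp5if1 lies below the controls from 24 h on.

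The late window was also set against 6-18 h, without use of the controls. At 72-168 h 36 genes were higher and 2 lower than at 6-18 h, where 9.07% of all probe sets were higher and 12.1% lower. The higher genes were 17 of complex I, 4 of complex III, 7 of complex IV and 8 of complex V, and none of complex II or of the assembly factors. Ndufv3 was higher by 0.96 ± 0.11 (limma, adjusted p = 1.58e-08), the largest of these differences, with all 12 late arrays above all 16 earlier ones, as for 0.180% of all probe sets. Atp5f1e was higher by 0.57 ± 0.09 and Atp5mf by 0.48 ± 0.07 (limma, adjusted p = 5.84e-06 and 2.05e-06). Ndufaf4 fell by 0.66 ± 0.12 and Ndufa5 by 0.35 ± 0.12 against 6-18 h (limma, adjusted p = 8.76e-05 and 0.0306). The Ndufa5 difference was lost without any of 10 arrays (adjusted p up to 0.0747), namely replicate 3 at 6, 10, 13 h, replicates 1 and 2 at 18 h, replicates 1 and 3 at 72 h, replicates 2 and 4 at 96 h and replicate 4 at 168 h. In the same contrast both erythroid markers were higher, Hbb by 1.98 ± 0.37 and Alas2 by 0.53 ± 0.18 (limma, adjusted p = 9.96e-05 and 0.0253), with summed signals of 332.5 to 5291 at 72-168 h, against 264.8 to 2320 at 6-18 h. Of 5 hepatocyte markers 1 was higher, with a list median of 0.36, and of 7 striated muscle markers 1 was higher, with a list median of -0.36. Of the Kupffer cell, endothelial, stellate cell and bile duct markers 1 each was lower, and the part of these cell types was not tested.

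Several measures moved with the late rise. The Gapdh ratio given above was higher at late times, and with it as a covariate, an alternative chosen after seeing the data, 30 genes rose and 1 fell at 72-168 h and 28 rose and 1 fell at 24-48 h. With the spike-in level, high or low, as a block 39 rose and 1 fell at 72-168 h. On the 29 arrays of low spike-in level alone 29 rose and 1 fell, with a median of 0.32, and on the 15 arrays of high level alone, 1 of them a control, the median was 0.345 in the late window and no gene passed, where 15 of 87 had an unadjusted p under 0.05, as did 8.29% of all probe sets. Markers of other cell types moved too. Of 6 markers of Kupffer cells, the resident macrophages of liver, 3 fell at 72-168 h and 5 at 24-48 h, where 6.01% and 2.62% of all probe sets fell. Clec4f fell by 1.38 ± 0.15 at 72-168 h (limma, adjusted p = 1.17e-08). The summed Kupffer cell marker signal was 927.4 to 2755 at 72-168 h, against 2107 to 2469 in the controls. The summed hepatocyte marker signal was 30530 to 88210, against 38830 to 73260 in the controls, and none of 5 hepatocyte markers passed. Of 5 stellate cell markers 1 fell, as did the 1 bile duct marker tested. Of 7 striated muscle markers 1 rose at 72-168 h, while the list median was -0.42. Their summed signals were 2669 to 10730, against 1738 to 8476 in the controls. The part of these cell types in the rise was not tested.

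Without control replicate 2 the number of genes changed at 24-48 h was 17 instead of 32, and without control replicate 1 the number at 6-18 h was 5 instead of 8. At 72-168 h it ran from 28 to 41 as single arrays were left out. When the fit held only the arrays of the groups compared, 14 genes rose and 1 fell at 24-48 h and 20 rose and 1 fell at 72-168 h.

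In the short course the first change was a fall. At 0.25-0.75 h no gene passed limma's test, where 2.47% of all probe sets rose and 0.948% fell, and 14 of 55 genes had an unadjusted p under 0.05, as did 21.6% of all probe sets. At 1-2 h 11 genes fell and none rose, where 4.95% of all probe sets fell and 7.22% rose. At 4-8 h 15 fell and 2 rose, where 10.5% fell and 16.4% rose. The median change over the genes was -0.11 at 4-8 h, beside 0.10 over all probe sets. At 1-2 h 12 of 55 genes lay above the control mean, as did 55.9% of all probe sets, and for 6 genes all 5 arrays lay below all 4 controls, where 2.93% of all probe sets did so. The genes that fell at 1-2 h were 6 of complex I, 2 of complex IV and 3 of complex V, and at 4-8 h 8 of complex I, 1 of complex II, 1 of complex IV and 5 of complex V.

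Ndufs7, the core subunit named above, had signals of 1210, 1246, 1550, 1721 and 2001 at 1-2 h, against 2754, 2675, 2783 and 2798 in the controls. All 5 arrays lay below all controls, and it fell by 0.90 ± 0.17 (limma, adjusted p = 0.000905). At 4-8 h it ran from 1307 to 3094 with a median of 1964 and fell by 0.53 ± 0.14 (limma, adjusted p = 0.00538, 16 of 17 arrays). Ndufb10 ran from 550.2 to 1047 with a median of 1038 at 1-2 h, against 1791, 1493, 1507 and 1713 in the controls, without overlap. It fell by 0.99 ± 0.20 (limma, adjusted p = 0.00139), and at 4-8 h by 0.65 ± 0.16 (adjusted p = 0.00336, 17 of 17 arrays). All of these calls held when any 1 array of the groups was left out.

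Of complex IV Cox6b1, a subunit on the intermembrane side, ran from 2185 to 3280 with a median of 3059 at 1-2 h, against 5318, 3696, 4584 and 4463 in the controls, without overlap. It fell by 0.67 ± 0.15 (limma, adjusted p = 0.00448), while a dimmer probe set stood at -0.26 and did not pass. Ndufa4, now assigned to complex IV, fell by 0.38 ± 0.12 (limma, adjusted p = 0.0292), lost without control replicate 3 or replicate 2 at 1 or 2 h (up to 0.152). Of complex V Atp5po, the stalk subunit that confers oligomycin sensitivity, ran from 3377 to 5388 with a median of 3970 at 1-2 h, against 6908, 5307, 7449 and 7515 in the controls. One array lay just inside the control range, and it fell by 0.74 ± 0.16 (limma, adjusted p = 0.00358), and at 4-8 h by 0.58 ± 0.13 (adjusted p = 0.00163). Atp5f1c, the gamma subunit that turns in the head, fell at 4-8 h by 0.52 ± 0.15 (limma, adjusted p = 0.0107, 17 of 17 arrays), lost without control replicate 3 or 4 (up to 0.087). Sdha, the only complex II gene of this design, fell at 4-8 h by 0.29 ± 0.09 (limma, adjusted p = 0.0154, 17 of 17 arrays), with signals of 2055 to 3174, against 2895 to 3568 in the controls, lost without control replicate 1 or 3 (up to 0.0841).

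At 4-8 h 2 complex I genes passed in the other direction, but neither did so with median centring or quantile normalization. Ndufb1, an accessory subunit, ran from 1282 to 2267 with a median of 1757, against 1093, 2449, 908 and 920.3 in the controls, 1 of which lay above all treated arrays. It rose by 0.48 ± 0.17 (limma, adjusted p = 0.0356), lost without control replicate 1, 3 or 4 (up to 0.225), and stood at 0.35 with median centring (adjusted p = 0.0988). Ndufa5 ran from 1285 to 2299 with a median of 1781, against 1648, 1639, 1296 and 1285 in the controls. It rose by 0.29 ± 0.11 (limma, adjusted p = 0.0434, 15 of 17 arrays), and 13 of the 21 arrays ended that call when left out (up to 0.188). With median centring it stood at 0.17 (limma, adjusted p = 0.236). Neither gene passed with the replicate block, with only the arrays of the groups compared, with the Gapdh ratio as a covariate or without the arrays that stood apart.

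These early counts changed with the arrays used. The 9 arrays that stood apart are control replicates 1 and 3, replicate 3 at 0.5, 4, 7 and 8 h, 2 h replicate 1, 5 h replicate 2 and 72 h replicate 2, so that leaving them out keeps 2 of 4 controls. Without them 2 genes fell at 1-2 h and none passed at 4-8 h, where 9 of 55 had an unadjusted p under 0.05, as did 21.4% of all probe sets. The median change was then -0.185 at 1-2 h, against -0.195 with all arrays, and 0.00 at 4-8 h. At 1-2 h the number that changed was 7 without control replicate 1, 6 without 1 h replicate 2 and 5 without 2 h replicate 1. At 4-8 h it was 8 without control replicate 3 and 9 without control replicate 4. With each array centred on its median the median of all probe sets was -0.02 at 4-8 h and -0.03 at 0.25-0.75 h, against 0.10 and 0.08 as deposited, and that of the genes -0.24 and -0.12, against -0.11 and -0.01 as deposited.

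Neutrophil markers rose in these windows and before them. At 0.25-0.75 h, where no oxidative phosphorylation gene passed, S100a8 rose by 2.95 ± 0.70 and S100a9 by 2.05 ± 0.51 (limma, adjusted p = 0.0164 and 0.0218), and the summed signal of the list was 483.2 to 6483. S100a8, a calcium-binding protein of neutrophils, rose by 4.02 ± 0.79 at 1-2 h and by 2.98 ± 0.65 at 4-8 h, and S100a9 by 3.23 ± 0.58 and 2.03 ± 0.47 (limma, adjusted p = 0.00114, 0.000916, 0.000563 and 0.00178). Of 3 tested neutrophil markers 2 rose at 1-2 h and 3 at 4-8 h, where 7.22% and 16.4% of all probe sets rose. The summed neutrophil marker signal was 1249 to 6174 at 1-2 h and 680.9 to 4954 at 4-8 h, against 204 to 738.5 in the controls. At 4-8 h 1 of 3 tested Kupffer cell markers and 1 of 5 hepatocyte markers fell, where 10.5% of all probe sets fell. The summed hepatocyte marker signal in that window was 44630 to 84610, against 38490 to 138900 in the controls. Of 4 endothelial markers Lyve1 rose by 1.63 ± 0.21 and Pecam1 by 0.57 ± 0.14, while Kdr fell by 1.33 ± 0.26 (limma, adjusted p = 1.11e-06, 0.00325 and 0.000324). Of 3 tested stellate cell markers Acta2 rose by 0.80, and of 2 bile duct markers Epcam fell by 0.46. At 1-2 h Lyve1 was the only marker outside the neutrophil list that passed, with a rise of 0.91 ± 0.25 (limma, adjusted p = 0.0165). The part of these cells in the fall was not tested. The Gapdh ratio was 0.00 ± 0.12 at 1-2 h (SD, n = 5), -0.02 ± 0.12 at 4-8 h (n = 17) and 0.14 ± 0.14 in the controls (n = 4), and with it as a covariate 11 genes fell at 1-2 h and 13 at 4-8 h.

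At 12-18 h the median over the short-course genes was above the controls, at 0.21. Of 55 genes 4 rose and none fell, where 0.490% of all probe sets rose and 0.507% fell. For 8 genes all 5 arrays lay above all 4 controls, where 1.42% of all probe sets did so, and 41 lay above the control mean, as did 37.5% of all probe sets. Cyc1 had signals of 4380 and 3792 at 12 h and 4514, 4319 and 3936 at 18 h, against 2723, 2353, 2772 and 2020 in the controls. The 5 arrays lay above all controls, and the rise was 0.76 ± 0.12 (limma, adjusted p = 0.000432). Ndufab1 had 3762 and 4421 at 12 h and 4384, 4306 and 4408 at 18 h, against 3037, 3083, 2572 and 2411 in the controls, again without overlap, and rose by 0.61 ± 0.15 (limma, adjusted p = 0.0394). Cox8a rose by 0.47 ± 0.12 and Ndufb9, an accessory subunit of complex I, by 0.59 ± 0.14 (limma, adjusted p = 0.0371 and 0.0331). Ndufb9 lies outside the naming rule and was chosen after its value was seen. Of these calls that of Cyc1 alone held when any 1 array was left out. Without control replicate 3 or 4, 12 h replicate 1 or 2 or 18 h replicate 1 or 2 only 1 gene passed, without 18 h replicate 3 only 2, and without the 9 arrays that stood apart only 1. Several genes that fell early reached their highest mean at 18 h, Ndufs7 with 3663 ± 152.4 (SD, n = 3) and Ndufb10 with 2119 ± 102.6, against 1228 ± 25.36 and 616.4 ± 93.63 at 2 h (n = 2). Their control means were 2753 and 1626 (n = 4), and neither gene passed against the controls at 12-18 h.

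**Figure D4:**
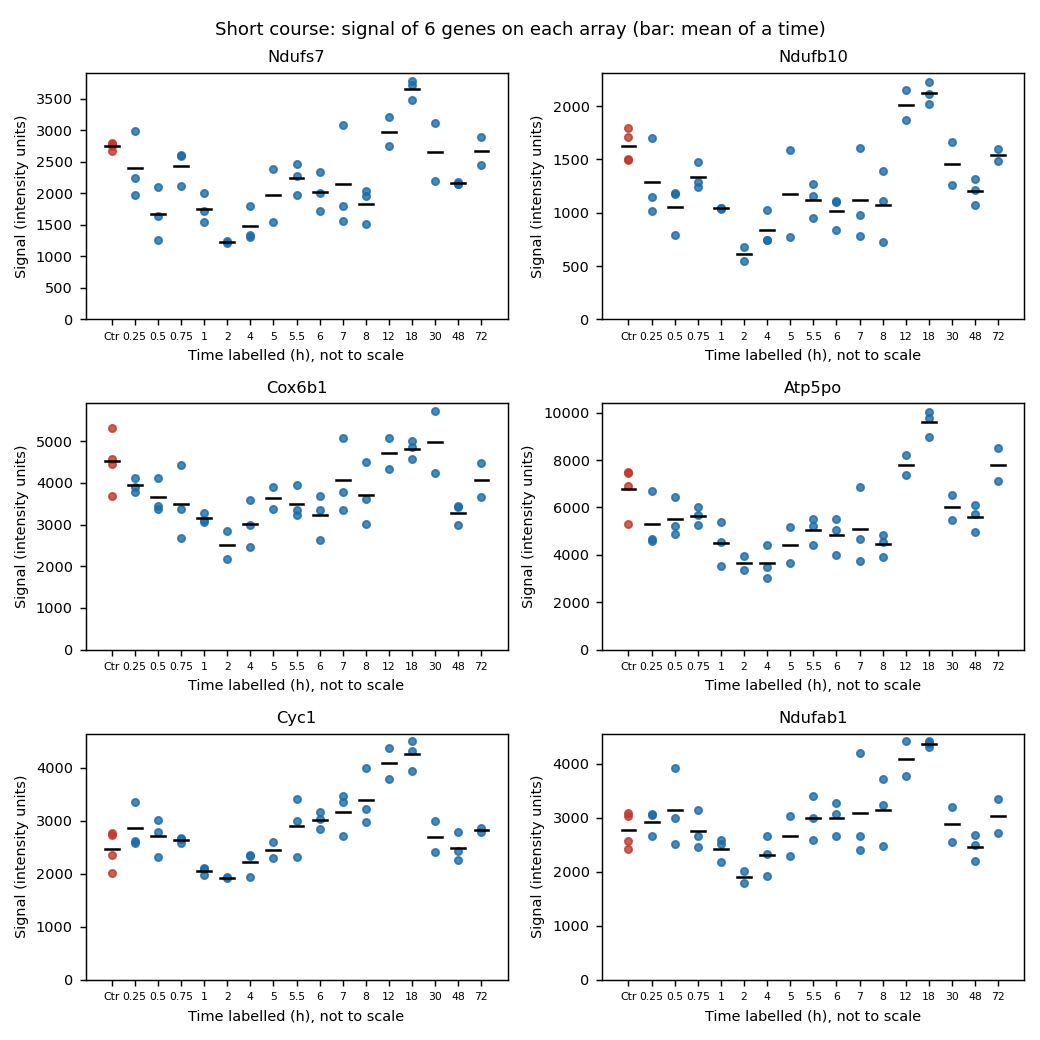
Signal of 6 short-course genes on each array, in intensity units on linear axes that start at 0. The x axis gives the labelled time in h with the controls at the left (red), points are arrays and bars the mean of a time. Ndufs7 and Ndufb10 are lowest at 2 h, with means of 1228 and 616.4, and Cyc1 and Ndufab1 are highest at 18 h, with means of 4256 and 4366.

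By 30-72 h no short-course gene passed against the controls, where 0.0817% of all probe sets rose and 0.0163% fell, and 4 of 55 genes had an unadjusted p under 0.05, as did 4.92% of all probe sets. For 1 gene, Ndufb3, an accessory subunit of complex I chosen after its value was seen, all arrays lay below all controls, where 0.311% of all probe sets did so. Without control replicate 2 the number was 1. Set against 4-8 h, 11 genes were higher at 30-72 h and 1 lower, where 15.2% of all probe sets were higher and 21.5% lower. Ndufc1 was higher by 0.59 ± 0.15, Ndufa6 by 0.53 ± 0.11 and Atp5po by 0.50 ± 0.11 (limma, adjusted p = 0.00169, 0.000338 and 0.000487). Ndufa5 was lower, as in the long course, and fell by 0.56 ± 0.09 (limma, adjusted p = 9.88e-06, 7 of 7 arrays). Without 72 h replicate 2 the number that differed was 7 instead of 12, and without the arrays that stood apart it was 5.

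Other short-course genes passed in no window. Uqcr11 passed the F test over all times (limma, adjusted p = 0.0305). Its signals were 5937 and 5015 at 12 h and 7160, 7914 and 7476 at 18 h, against 6277, 4355, 5333 and 4425 in the controls. The 18 h arrays lay above all controls and the 12 h arrays did not, and the change at 12-18 h was 0.34 ± 0.14 (limma, adjusted p = 0.254).

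Cox4i2 also passed the F test (limma, adjusted p = 0.0471), on a probe set with a mean signal of 1366. Its signals were 1978 and 2418 at 72 h and 981.5 and 691.6 at 5 h, against 1210, 1169, 1403 and 2072 in the controls. Its changes by window lay between -0.28 and 0.09, and the smallest adjusted p against control was 0.355. Cox6a2, mean signal 820.6, did not pass the F test (limma, adjusted p = 0.232) and had 685.9 to 974.4 at 4-8 h, against 555.9 to 861.1 in the controls, a change of 0.24 ± 0.10 (limma, adjusted p = 0.0814).

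Uqcrc2 stood at -0.43 ± 0.22 at 1-2 h with signals of 950 to 1680, against 1406 to 2700 in the controls (limma, adjusted p = 0.195). Cox6a1 stayed between -0.10 and 0.17 by window, and Cox4i1 between -0.77 and 0.26 with standard errors of 0.33 to 0.40. Among the assembly factors Ndufaf3 lay between -0.15 and 0.15 and Sdhaf2 between -0.55 and -0.20. Cox8b, below the filter, had signals of 23.3 to 193.7 at 4-8 h, against 34.71 to 93.68 in the controls.

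Both courses measured 55 of the genes with probe sets that passed the filter. Ndufa5 rose in both at similar labelled times, by 0.76 at 6-18 h of the long course and by 0.29 at 4-8 h of the short course. The short-course call was fragile, as 13 of 21 arrays ended it when left out and it did not pass with median centring. Cyc1 and Ndufab1 rose at 6-18 h of the long course by 0.36 and 0.58 and at 12-18 h of the short course by 0.76 and 0.61. Of 20 arrays 3 ended the long-course Cyc1 call when left out, and of 9 arrays 7 ended the short-course Ndufab1 call. Ndufv3 rose late in the long course and fell at 4-8 h of the short course by 0.56 ± 0.15 (limma, adjusted p = 0.00678). In the short course it did not pass the F test over all times (limma, adjusted p = 0.0574). No long-course array was taken before 6 h. At 6-18 h of that course its median signal was 436.6, against 377.2 in the controls, so no fall was seen there. Atp5if1 gave no clear reading in the short course. Its brightest probe set there, of a kind that can match a gene family, had signals of 836.6 to 2607 at 4-8 h, against 452.2, 3156, 2021 and 1581 in the controls, and stood at -0.01 ± 0.28 (limma, adjusted p = 0.99). Another probe set of the gene fell at 1-2 h by 0.62.

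Some genes of the short-course design have probe sets that disagree. For Cox8a the brightest probe set stood at 0.17 at 1-2 h, while the dimmest of 4 fell by 0.55. For Ndufs8 the brightest stood at -0.06 while another fell by 0.59. For Ndufc1 both probe sets fell, by 0.74 and 0.71, the first lost without control replicate 1 or 4, 1 h replicate 2 or 2 h replicate 1 or 2 (adjusted p up to 0.0999), and for Atp5f1d both fell, by 0.48 and 0.40. Averaging the probe sets of a gene gave the same number of calls within 1.5 times in every window except 0.25-0.75 h, where 1 gene passed instead of none.

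Other nuclear genes of the mitochondrion were counted the same way. At 72-168 h of the long course 4.81% of all probe sets rose and 6.01% fell, and the counts that follow stand beside those shares. Of 69 tested genes of the mitochondrial ribosome 7 rose and none fell, with a median of 0.13. Of 15 genes of the citric acid cycle and pyruvate dehydrogenase 4 rose and none fell, with a median of 0.11, led by Pdhb, a subunit of pyruvate dehydrogenase, with 1.13 ± 0.22 (limma, adjusted p = 0.000311, as for the values that follow). Of 16 genes of electron entry and quinone 2 rose, led by Prodh, proline dehydrogenase, with 2.40 ± 0.31 (adjusted p = 6.08e-07). Of 15 carriers and channels 1 rose and 2 fell. Slc25a5, an ADP/ATP carrier, rose by 0.48 ± 0.11 (adjusted p = 0.0034), and Ucp2, an uncoupling protein relative, fell by 1.01 ± 0.29 (adjusted p = 0.0185). Of 23 tested assembly factors outside the naming rule none passed in that window. Of 8 genes of mitochondrial biogenesis 1 fell, Tfam, the packaging factor of mitochondrial DNA, by 0.31 ± 0.11 (adjusted p = 0.0452). Esrra, estrogen-related receptor alpha, rose by 0.66 ± 0.18 at 6-18 h of the long course (adjusted p = 0.0126) and by 0.65 ± 0.15 in the short-course window of 4-8 h (adjusted p = 0.00193).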

How the data were processed

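The deposited values are Affymetrix signal intensity, 1 per probe set and array on a linear scale, and the file values show that the authors had scaled the arrays to a trimmed mean near 801 in the short course, except 6 h replicate 3 at 150, and near 150 in the long course. Which software summarised the probes is not given in the sources used here. No depth of counting exists for arrays, and their number limits the precision.

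The 6 h replicate 3 array was rescaled to the others. Log2(signal + 32) was taken, control probe sets and those under the 30th percentile of mean signal were left out, and limma 3.58.1 in R 4.3.3 (lmFit, eBayes with trend) was fitted on all groups of a course, with window contrasts as unweighted means of times, a moderated F test over all times and Benjamini-Hochberg adjustment over all probe sets tested. The fits were tested on simulated data. Gene symbols came from the platform annotation, and 7 short-course and 9 long-course probe sets with several symbols were left out. Within a course no 2 arrays held identical values.

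The members, lists and tests were chosen with earlier results of these data known. Named with values were the 3 genes of each complex with the smallest F test p in a course, the 2 largest rises and 2 largest falls of a window, Cyc1, tissue isoforms, Atp5if1 and the assembly factors, and up to 2 genes a window of other lists. Groups came from the titles. The title of 1 long-course array says 96 h and its description 72 h, and the title was used.

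Replicate numbers recur across groups. Deviations from the group means correlated at -0.006 on average between same-numbered short-course arrays and at 0.052 in the long course. Single pairs ran from -0.625 to 0.77 and from -0.192 to 0.469. Between arrays of different numbers the averages were 0.004 in the short course and -0.016 in the long course. The numbers were not taken to pair the arrays in the main fit, though low averages cannot exclude that some arrays were paired. Yet every long-course array numbered 4 had the high spike-in level, so in that course the number and the spike-in level were linked. Alternatives were other added constants, no filter, centring, quantile normalization, averaged probe sets, array weights, a replicate block and only the groups compared. Further ones were the spike-in level as a block or as a split, a fit without the arrays that stood apart, and each array left out in turn. The Gapdh ratio as a covariate was chosen after seeing the data.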

Additional observations from a re-analysis of the deposited data

Results flagged for a closer look

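Groups of 4 arrays were examined for each named gene and for the array median over all genes. In 29 of the 411 groups 1 array lay far from the other 3 by Dixon's 95% criterion, which chance meets in about 1 of 20 groups. None of these values was left out.

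In the short course control replicate 2 had the outlying signal of Cox6a1 (9412) and of Ndufb1 (2449). The other values are of the long course. Among complexes II to V, Atp5mf had 2801 on 96 h replicate 3 and 2323 on 168 h replicate 4, Atp5f1e 1008 on 6 h replicate 1, and Atp5mk 3307 on 48 h replicate 3. Uqcrh had 858 on 6 h replicate 1, Uqcr11 1065 on 13 h replicate 2, Sdhd 1268 on 72 h replicate 1 and Sdhc 1158 on 168 h replicate 4. Of complex I, Ndufc1 had 1224 on 96 h replicate 2.

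Among assembly factors and the inhibitor, Sdhaf1 had 376.8 on 168 h replicate 1 and Ndufaf4 284.3 on 6 h replicate 3. Ndufaf3 had 375.6 on 48 h replicate 3, Ndufaf8 136.7 on 6 h replicate 4 and Ndufaf5 106.7 on control replicate 3. Sdhaf3 had 110.9 on 10 h replicate 1, 96.76 on 48 h replicate 1 and 175 on 72 h replicate 2. Ndufaf7 had 57.32 on 24 h replicate 3 and 95.42 on 36 h replicate 4. Atp5if1 had 106.4 on 10 h replicate 3, 115.3 on 13 h replicate 4 and 132.9 on 48 h replicate 1. Of the tissue isoforms Cox6a2 had 18.12 on control replicate 1, Cox8b 90.59 on 24 h replicate 1, and Cox7a1 79.62 on 6 h replicate 4, 37.68 on 18 h replicate 4 and 37.89 on 48 h replicate 3.

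The change from control also differed between time windows when limma tested the windows against each other, for 12 short-course genes (30-72 h against 4-8 h) and for 38 long-course genes (72-168 h against 6-18 h).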

How the results depend on the processing

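Of 1280 pairs of a named gene result and an alternative none changed sign. All of these results had passed in the main fit and were refitted on the same arrays or a part of them, so a change of sign was unlikely from the start. Of the 87 results 34 no longer passed when some single array was left out. With only the arrays of the groups compared 26 did not pass, and without the arrays of mean correlation under 0.9 the number was 22. Counts of genes changed were most fragile in the short course. At 12-18 h, where 4 genes changed, the number was 8 with median centring, 1 with quantile normalization, 0 with only the arrays of the groups compared and 1 without the arrays of mean correlation under 0.9. With only the arrays of the groups compared it was 5 (1-2 h) and 8 (4-8 h) for short-course windows, and 15 (24-48 h) and 21 (72-168 h) for long-course windows. Without the arrays of low correlation, 2 of them controls, it was 12 at any time, 2 at 1-2 h, 0 at 4-8 h and 5 at 30-72 h against 4-8 h. At 0.25-0.75 h, where none changed, it was 2 with array weights, which gave 34 at any time, and 1 with averaged probe sets. In the long course the number changed at any time was 27 on arrays of low spike-in level alone and 0 on those of high level alone, where the windows also gave 0. The causes were not tested, except that the smaller fits hold fewer arrays.

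With the replicate block, which was not part of the main fit, 8 short-course genes changed at 4-8 h, 1 at 12-18 h and 19 at any time. In the long course 41 genes changed at 72-168 h with it.

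As single arrays were left out, the short-course counts ran from 0 to 4 for 0.25-0.75 h, 5 to 13 for 1-2 h, 8 to 18 for 4-8 h, 1 to 6 for 12-18 h, 0 to 1 for 30-72 h and 7 to 13 for 30-72 h against 4-8 h. At 0.25-0.75 h the number was 2 without control replicate 1 or 0.5 h replicate 1 and 4 without control replicate 2. The long-course counts ran from 5 to 9 at 6-18 h and 17 to 33 at 24-48 h.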
